A study of Mus musculus with 12 samples.

Results

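RNA from cells sorted as megakaryocytes (MKs) from the bone marrow (BM) was compared with RNA from cells sorted as splenic MKs. The mice had received saline, and the comparison was made across all genes. The comparison used 6 of the 12 libraries of the series, 3 from BM and 3 from spleen, and the other 6 came from the same organs after sepsis and entered the fit through the filter, the scaling and the estimate of the spread. All mice were C57BL/6 animals of both sexes, 8 to 12 weeks old. They carried a red fluorescent protein that is switched on by a Cre recombinase under the promoter of Pf4 (Pf4-TdTomato). The red protein itself is under the CAG promoter, so the label is not a measure of current Pf4 activity. The organs were taken 5 days after saline or after injection of cecal slurry (CS, here called sepsis). For each library 300 cells were sorted. The labels name the gate as positive for CD45, the Pf4 reporter, CD41 and CD42b and negative for lineage markers, while the text of the study also excludes CD138. The libraries of a group are independent replicates from 3 mice per the methods and legends of the study, which do not tie a library to a mouse or its sex, nor say whether BM and spleen came from the same mice. Total counts were between 7756762 and 9379865 in BM and between 10080631 and 12912148 in spleen, and CPM below are counts per 1000000 counts of the library, after scaling with edgeR's trimmed mean of M values (TMM). In bulk samples such as these, fewer cells of a type and less RNA per cell cannot be told apart.

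MKs are the large polyploid cells that make platelets. In adult mice most of them sit in the BM, where they copy their genome repeatedly without dividing, build granules and membranes, and extend proplatelets into sinusoids. The mouse spleen also holds MKs throughout life, in a red pulp that lies next to white pulp follicles rich in B and T cells. The genes described below were grouped by role, from the cell cycle, mitochondria and metabolism to secretion, lysosomes, nucleic acid sensing and signaling.

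Before any pathway is read, the libraries were set against their label. The 21 MK and platelet genes of the marker list summed to 25222 to 27777 CPM in BM libraries and 1594 to 3770.2 CPM in splenic libraries, and none of them was at 0 in either group. The 20 B cell genes summed to 916 to 1299 CPM in BM and 24439 to 67555 CPM in spleen, and the 11 plasma cell genes to 1720.0 to 4905 CPM and 47665 to 81403 CPM. In the tissue where each sum was higher, a single gene made up most of it. These were Pf4 (17478 to 20586 CPM in BM), Ighm (13312.5 to 44075 CPM in spleen) and Jchain (45639.5 to 80009 CPM in spleen). Gene by gene, the libraries were apart for 17 of the 21 MK genes and 8 of the 11 plasma cell genes. Gp1ba, which encodes the sorted CD42b, had 35.2, 28.2 and 57.6 CPM in the BM libraries and 0.135, 0.413 and 6.76 CPM in the splenic libraries. Every splenic library lay below every BM library in the MK sum and above every BM library in the B cell and plasma cell sums, and the B cell values were apart in all 20 genes. These markers go against the name MK for the cells of the spleen, which are therefore called splenic libraries below. Splenic replicates resembled each other less, with Pearson's r of 0.522 to 0.626 between pairs of libraries, against 0.759 to 0.81 in BM (log2 CPM over genes, which are not independent, 3 pairs each). Splenic replicate 1 stood apart through neutrophil genes (13 genes, 21789 CPM in sum against 348 and 527 CPM in the other splenic libraries and 149 to 354 CPM in BM), and BM replicate 2 through basophil and mast cell genes (11 genes, 29546 CPM against 5188 and 11249 CPM in the other BM libraries and 3247 to 5398 CPM in spleen). In BM replicate 2 the basophil and mast cell sum exceeded the MK list sum of 27777 CPM, so the BM libraries were not free of genes of other cells either. The part of these cell types in the differences below was not tested.

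Of 20263 genes tested, 253 (1.25%) differed between tissues after saline at an adjusted p under 0.05. BM libraries were higher for 106 genes (0.523%), of which 103 were protein coding and 5 belonged to the MK and platelet list. Splenic libraries were higher for 147 genes (0.725%), of which 114 were protein coding, 28 were immunoglobulin or T cell receptor segment genes and 29 belonged to the lists for B cells, plasma cells or MHC class II. Outside all 80 lists lay 81 of the genes higher in BM and 67 of the nonsegment genes higher in spleen. The called changes were large, with a median log2 fold change (BM over spleen) of 5.17 for the first set and -4.97 for the second, and the smallest sizes were 1.98 and 1.86. The 3 BM libraries lay above all 3 splenic libraries for all 106 genes of the first set, and the 3 splenic libraries lay above all BM libraries for 140 of the 147 in the second. Over all genes tested the same happened for 11.3% in favor of BM and 7.0% in favor of spleen. The median log2 fold change of all tested genes was -0.28, and it moved to -0.54 with RLE factors and to 0.20 with library size alone, where 262 genes were higher in BM and 114 in spleen (69.7% of calls in BM, against 41.9% with TMM and 30.3% with RLE factors). List medians below are to be read against this -0.28. Counts of called members are to be read against 0.523% of all genes called higher in BM and 0.725% in spleen. With the same 20263 genes kept, leaving out BM replicate 1, 2 or 3 left 44, 51 and 34 genes higher in BM and 51, 59 and 48 higher in spleen, and leaving out splenic replicate 3, whose MK list sum was the highest of the splenic libraries, gave 207 and 141. Where a call is said below to be lost without a library, the genes tested were kept in this way.

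BM libraries held high levels of a set of genes that were close to absent in splenic libraries. All 14 genes of this direction described here and in the plot of leading genes kept their call when any of the 12 libraries was left out. Tceal8, an X-linked gene of the transcription elongation factor A-like family, had 190.0, 203 and 195 CPM in the BM libraries and 0.405, 1.40 and 1.5 CPM in the splenic libraries (edgeR, log2 fold change 7.44 with SE 0.80, adjusted p = 0.000197). Inka1, which encodes an inhibitor of the kinase PAK4, had 166, 148 and 155 CPM in the BM libraries and 2.03, 0.743 and 0.858 CPM in the splenic libraries (edgeR, log2 fold change 7.02 with SE 0.76, adjusted p = 0.000197). No BM value of either gene came near a splenic value. Slc14a1, the urea transporter of erythroid and endothelial cells, had 398, 373 and 463 CPM in the BM libraries and 5.54, 2.97 and 15.8 CPM in the splenic libraries (edgeR, log2 fold change 5.67 with SE 0.76, adjusted p = 0.000859). Cavin2, a coat protein of caveolae, had 558, 448 and 501 CPM in the BM libraries and 2.57, 4.62 and 24.2 CPM in the splenic libraries (log2 fold change 5.58, adjusted p = 0.0019 in edgeR). In both genes the highest splenic value came from replicate 3. Tuba8, an alpha tubulin, had 65.1, 95.6 and 90.3 CPM in the BM libraries and 2.30, 0.495 and 0.215 CPM in the splenic libraries (log2 fold change 6.40, adjusted p = 0.0031 in edgeR), with the highest splenic value in replicate 1, and 16.3% of its exonic length overlaps another gene. Muc13, a transmembrane mucin, had 73.8, 83.1 and 94.3 CPM in the BM libraries and 0.541, 3.47 and 3.54 CPM in the splenic libraries (log2 fold change 5.04, adjusted p = 0.00315 in edgeR). Prkar2b, a regulatory subunit of protein kinase A, was also counted readily in spleen, with 431, 373 and 371 CPM in the BM libraries and 17.6, 43.9 and 34.8 CPM in the splenic libraries (log2 fold change 3.61, adjusted p = 0.00343 in edgeR). Cavin2, Tuba8 and Muc13 were not called by limma-voom (adjusted p = 0.0686, 0.0581 and 0.0619), nor the genes Dnph1, Prodh and Rfc5 described below (adjusted p = 0.0774, 0.0513 and 0.0615). The MK list sum was likewise higher in BM, and whether these genes differ within MKs was not tested.

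Several of the leading BM genes encode enzymes, and they are set together here only for reading, since no list of such genes was tested. Gstm5, a glutathione transferase, had 70.3, 50.6 and 78.4 CPM in the BM libraries and 0.405, 0.248 and 0.644 CPM in the splenic libraries (edgeR, log2 fold change 7.24 with SE 0.98, adjusted p = 0.000873). Khk, which starts fructose breakdown, had 41.2, 68.8 and 36.0 CPM in the BM libraries and 0, 0.165 and 0.322 CPM in the splenic libraries (log2 fold change 8.09, adjusted p = 0.00198 in edgeR). Prodh, the mitochondrial enzyme that opens proline degradation, had 35.2, 27.9 and 34.6 CPM in the BM libraries and 0.270, 0.0825 and 0.429 CPM in the splenic libraries (log2 fold change 6.94, adjusted p = 0.00418 in edgeR). The splenic values of these genes were close to the limit of 3 counts, which corresponded to between 0.232 and 0.298 CPM without TMM scaling, so their fold changes rest on few splenic counts. Pecr, a peroxisomal enoyl-CoA reductase, had 22.3, 31.9 and 42.9 CPM in the BM libraries and 0, 0.165 and 0.322 CPM in the splenic libraries (log2 fold change 7.51, adjusted p = 0.0016 in edgeR), and Dnph1, which cleaves deoxynucleoside monophosphates, had 43.3, 109 and 68.6 CPM in the BM libraries and 1.35, 0.165 and 0.429 CPM in the splenic libraries (log2 fold change 6.85, adjusted p = 0.00146 in edgeR). Ppif, the mitochondrial cyclophilin, had 207, 151 and 165 CPM in the BM libraries and 10.9, 5.94 and 7.51 CPM in the splenic libraries (log2 fold change 4.42, adjusted p = 0.00251 in edgeR), and 18.3% of its exonic length overlaps another gene. Pemt, which methylates phosphatidylethanolamine to phosphatidylcholine, had 3 counts in all splenic libraries together against 907 in BM, a ratio of 281 with a 95% counting interval of 96.0 to 1367 (adjusted p = 0.00514 in edgeR). Akap1 and Mybl2, named after their values were seen, had 567 and 238 counts in BM and no count in spleen, so they were at least 176-fold and at least 73.8-fold higher in BM against a limit of 3 counts over the 3 splenic libraries. Akap1 anchors protein kinase A at mitochondria and Mybl2 is a transcription factor of cycling cells. Their adjusted p of 0.0414 and 0.046 in edgeR was above the threshold when some libraries were left out, for Akap1 without BM replicate 1, 2 or 3 or splenic replicate 1, 2 or 3 or BM sepsis replicate 1, 2 or 3 (adjusted p between 0.0545 and 0.108 in edgeR), and for Mybl2 without BM replicate 1, 2 or 3 or splenic replicate 1, 2 or 3 or BM sepsis replicate 1, 2 or 3 or splenic sepsis replicate 1 or 2 (adjusted p between 0.0619 and 0.124 in edgeR).

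Splenic libraries held the reverse pattern for genes of lymphocytes and of immune signaling outside the B cell list. Gimap3, a GTPase that supports lymphocyte survival, had 0.430, 1.09 and 0.754 CPM in the BM libraries and 112, 41.7 and 80.5 CPM in the splenic libraries (edgeR, log2 fold change -6.67 with SE 0.95, adjusted p = 0.00121). Ppp3cc, a catalytic subunit of the calcium-dependent phosphatase calcineurin, had 1.20, 0.895 and 0.646 CPM in the BM libraries and 70.8, 38.7 and 124 CPM in the splenic libraries (log2 fold change -6.39, adjusted p = 0.0016 in edgeR). Map3k8, a kinase that links Toll-like and TNF receptors to ERK, had 0.687, 0.895 and 0.215 CPM in the BM libraries and 84.1, 100.4 and 138 CPM in the splenic libraries (edgeR, log2 fold change -7.46 with SE 1.12, adjusted p = 0.00182). All 3 genes were near 1 CPM or below in BM. Among surface proteins, Fcmr (the Fc receptor for IgM) had 9.80, 3.48 and 1.40 CPM in the BM libraries and 504, 138 and 392 CPM in the splenic libraries (log2 fold change -6.13, adjusted p = 0.00197 in edgeR), Slamf6 (a SLAM family receptor) had 3.27, 2.49 and 1.94 CPM in the BM libraries and 169, 109.7 and 127 CPM in the splenic libraries (log2 fold change -5.72, adjusted p = 0.00429 in edgeR), and Cd38 (an ectoenzyme that consumes NAD) had 17.1, 5.86 and 6.14 CPM in the BM libraries and 117, 230.2 and 237 CPM in the splenic libraries (log2 fold change -4.32, adjusted p = 0.00343 in edgeR). Ly6d, Ly6a (Sca-1) and Cd52 encode GPI-anchored surface proteins. Ly6d had 136, 75.8 and 56.6 CPM in the BM libraries and 2906, 2382 and 5041 CPM in the splenic libraries (log2 fold change -5.26, adjusted p = 0.00251 in edgeR). Ly6a had 58.6, 85.4 and 19.5 CPM in the BM libraries and 966, 584 and 1581 CPM in the splenic libraries (log2 fold change -4.26, adjusted p = 0.0031 in edgeR). Cd52 had 280.4, 453 and 188 CPM in the BM libraries and 4402, 2599.7 and 6112 CPM in the splenic libraries (log2 fold change -3.83, adjusted p = 0.00647 in edgeR), and limma-voom with quality weights called neither Ly6d nor Cd52 (adjusted p = 0.0845 and 0.0632). The B cell and plasma cell sums given above were likewise higher in spleen, and the part of such cells was not tested.

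Genes that are also used outside lymphocytes stood among the leading splenic genes. Shisa5, a p53-induced protein of the endoplasmic reticulum, had 54.6, 47.2 and 41.6 CPM in the BM libraries and 656, 391 and 517 CPM in the splenic libraries (edgeR, log2 fold change -3.45 with SE 0.53, adjusted p = 0.00197). Lsp1, an actin-binding protein of leukocytes, had 26.9, 29.3 and 19.9 CPM in the BM libraries and 382, 286 and 497 CPM in the splenic libraries (log2 fold change -3.93, adjusted p = 0.00197 in edgeR). Samhd1, which hydrolyzes deoxynucleotides and restricts retroviruses, had 25.1, 12.2 and 31.0 CPM in the BM libraries and 149, 353 and 259 CPM in the splenic libraries (log2 fold change -3.48, adjusted p = 0.00658 in edgeR). The BM values of these genes were well above 0, so both groups held the RNA. Klf2, a transcription factor of quiescent lymphocytes and of shear stress, had 3.95, 10.1 and 8.18 CPM in the BM libraries and 229, 169 and 200.2 CPM in the splenic libraries (log2 fold change -4.75, adjusted p = 0.00348 in edgeR). Scd1, which puts the double bond into stearate, had 18.4, 5.27 and 5.82 CPM in the BM libraries and 128, 140.3 and 373 CPM in the splenic libraries (log2 fold change -4.44, adjusted p = 0.00647 in edgeR), with the highest value in splenic replicate 3. Scd1 lost its call without BM replicate 3 (adjusted p = 0.0611 in edgeR), Samhd1 lost it without BM replicate 2 (adjusted p = 0.0556 in edgeR) and Cd52 lost it without BM replicate 3 (adjusted p = 0.0583 in edgeR), while the other leading splenic genes kept theirs. Of the genes called higher in spleen, 3 had 3 counts or fewer in BM and were named after their values were seen. Hepacam2 had 1 count in BM and 898 in spleen (ratio 965, 95% counting interval 173 to 38146), Gm11830 had 2 and 971, and Il5ra, a chain of the IL-5 receptor, had 2 and 854 (ratio 459, interval 127 to 3794). The calls of all 3 were lost when libraries were left out, for Hepacam2 without BM replicate 1 or 3 (adjusted p between 0.0619 and 0.0692 in edgeR), for Gm11830 without BM replicate 1, 2 or 3 or splenic replicate 2 (adjusted p between 0.0735 and 0.142 in edgeR), and for Il5ra without BM replicate 1, 2 or 3 or splenic replicate 1 (adjusted p between 0.0583 and 0.109 in edgeR).

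**Figure D1:**
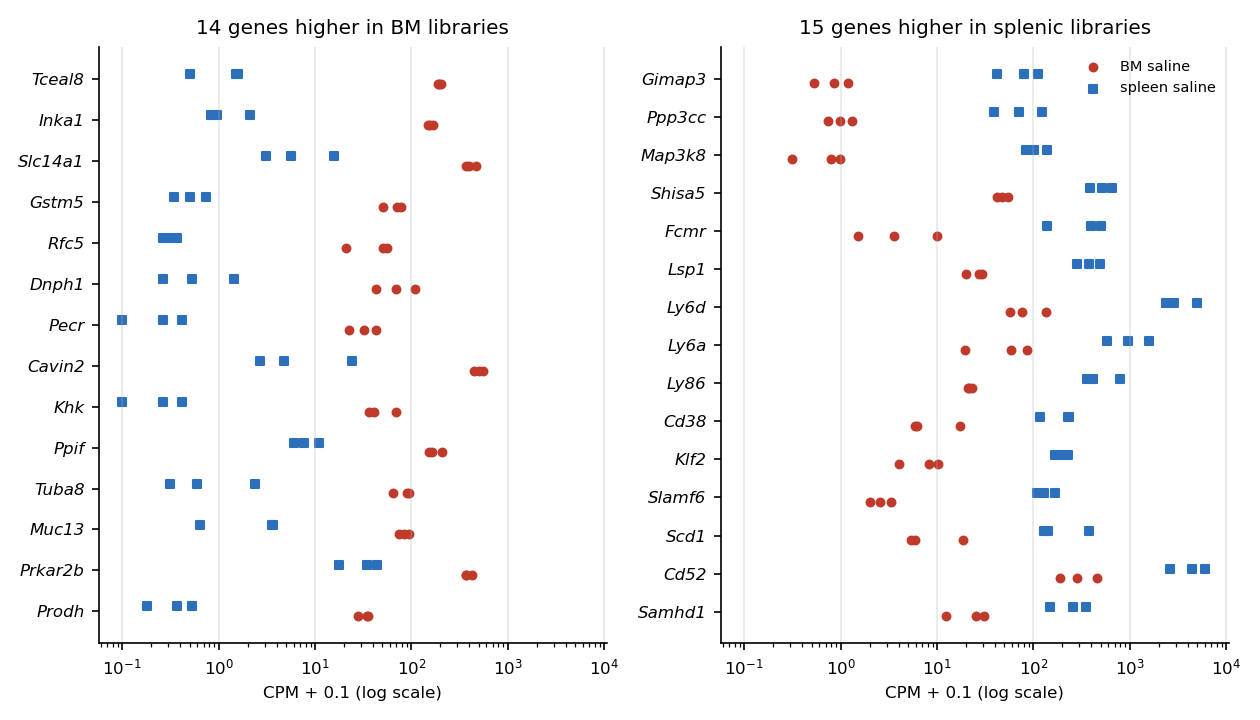
CPM of 14 leading protein-coding genes higher in BM and 15 higher in spleen in the 3 BM (circles) and 3 splenic (squares) saline libraries, on a log axis after adding 0.1 CPM. The genes were chosen for libraries that did not overlap between tissues, so the gap between circles and squares in each row is a consequence of the choice, and its width and the scatter within a tissue are what the plot shows.

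The sequence before the start of the leading genes in each direction is given because GATA and ETS family factors are the best known DNA-binding proteins of MK genes. The letters come from RefSeq on GRCm38.p6, run 5′ to 3′ on the strand of the gene, end at the base before its start and leave out bases inside the GENCODE gene model. The stretches belong to Tceal8 (chromosome X, 136172343 to 136172501, minus strand, 159 bases), Inka1 (chromosome 9, 107985917 to 107986166, minus strand, 250 bases), Gimap3 (chromosome 6, 48770852 to 48771101, minus strand, 250 bases) and Shisa5 (chromosome 9, 109038317 to 109038564, plus strand, 248 bases). Ppp3cc and Map3k8 stood before Shisa5 by p and are named only, Shisa5 has 5 starts in the table of which the most upstream is shown, and the stretch of Inka1 lies inside the annotated gene Gm20661. Capitals mark GATAA and GGAAG, searched on both strands, so that TTATC and CTTCC are marked too.
Tceal8: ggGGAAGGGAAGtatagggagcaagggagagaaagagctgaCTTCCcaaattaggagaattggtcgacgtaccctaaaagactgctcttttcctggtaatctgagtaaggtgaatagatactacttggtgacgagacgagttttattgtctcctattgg
Inka1: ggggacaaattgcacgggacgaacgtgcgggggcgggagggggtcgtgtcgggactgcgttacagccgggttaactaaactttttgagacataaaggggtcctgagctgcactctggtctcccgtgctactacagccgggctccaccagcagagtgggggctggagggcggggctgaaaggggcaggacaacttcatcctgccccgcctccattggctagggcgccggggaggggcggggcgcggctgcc
Gimap3: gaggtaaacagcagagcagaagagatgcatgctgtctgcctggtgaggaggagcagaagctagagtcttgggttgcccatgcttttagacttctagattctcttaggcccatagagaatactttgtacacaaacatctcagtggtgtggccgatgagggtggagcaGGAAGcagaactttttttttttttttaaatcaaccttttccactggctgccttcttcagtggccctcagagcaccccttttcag
Shisa5: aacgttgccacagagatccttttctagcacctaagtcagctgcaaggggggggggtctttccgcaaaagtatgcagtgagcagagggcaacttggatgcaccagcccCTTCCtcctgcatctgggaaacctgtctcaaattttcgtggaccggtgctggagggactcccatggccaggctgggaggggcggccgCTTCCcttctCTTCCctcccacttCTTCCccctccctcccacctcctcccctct
None of the 4 stretches held GATAA, which 22.6% of the 32851 RefSeq promoters held in the 250 bases before their start. GGAAG stood in 64.1% of them, and it was found at 3 places before Tceal8, at no place before Inka1, at 1 before Gimap3 and at 4 before Shisa5. In windows as short as that of Tceal8 the shares were 16.4% and 46.4%, and in those of Shisa5 22.5% and 63.7%. Among the genes with a promoter in the table, GATAA stood before 10 of 92 genes higher in BM (10.9%), 21 of 88 higher in spleen (23.9%) and 17.4% of all genes tested, and GGAAG before 65.2%, 65.9% and 66.9%. These are matches of letters in one window and not sites.

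Genes of DNA replication and mitosis had positive median differences, with BM over spleen, and few of them passed the test singly. Of 35 replication genes tested, 2 were called higher in BM and none in spleen, the median log2 fold change was 1.83 against -0.28 for all genes, and the BM libraries lay above all splenic libraries for 18 genes (51.4%, against 11.3% of all genes tested) and below them for none. The called genes were Rfc5, a subunit of the clamp loader, with 51.1, 20.7 and 55.6 CPM in the BM libraries and 0.270, 0.165 and 0.215 CPM in the splenic libraries (edgeR, log2 fold change 7.57 with SE 1.07, adjusted p = 0.00121), and Mcm6, a subunit of the replicative helicase, with 157, 159 and 158 CPM in the BM libraries and 19.9, 1.40 and 19.7 CPM in the splenic libraries (log2 fold change 3.53, adjusted p = 0.0232 in edgeR). Mcm6 was nearly equal in the BM libraries and spread widely in spleen, and it lost its call without BM replicate 1, 2 or 3 (adjusted p between 0.058 and 0.0647 in edgeR). The 36 replication genes summed to 2694 to 3514 CPM in BM and 744 to 1180.4 CPM in spleen. None of 33 mitosis and spindle genes passed edgeR's test, with 15 at an unadjusted p under 0.05, all higher in BM. By DESeq2 3 passed, and without splenic replicate 3 edgeR called 9. Their median log2 fold change was 2.17, and BM lay above spleen in all libraries for 20 of them (60.6%). They summed to 2982 to 4142 CPM in BM and to 337, 696 and 1639.6 CPM in splenic replicates 1, 2 and 3. Birc5 (survivin), named as the mitosis gene with the highest CPM, had 501, 414 and 455 CPM in the BM libraries and 1.89, 130.2 and 134 CPM in the splenic libraries (log2 fold change 2.36, adjusted p = 0.287 in edgeR).

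Medians above that of all genes were also found for lists of repair, cell cycle control and histones. Of 30 DNA repair genes, Rad51ap1, which encodes a protein of homologous recombination, was the one called, with 12.6, 24.6 and 39.5 CPM in the BM libraries and 0.405, 1.49 and 0.858 CPM in the splenic libraries (log2 fold change 4.77, adjusted p = 0.0318 in edgeR). Its call was lost without BM replicate 1, 2 or 3 or splenic replicate 1 or 3 or BM sepsis replicate 1 or 3 (adjusted p between 0.051 and 0.117 in edgeR). The median of the repair list was 1.12, with 12 genes (40%, against 11.3% of all genes) not overlapping in favor of BM and none in favor of spleen. Among 22 cyclins, CDKs and their inhibitors, E2f3, a transcription factor of S phase entry, had 28.8, 22.5 and 29.0 CPM in the BM libraries and 0.405, 1.16 and 0.966 CPM in the splenic libraries (log2 fold change 4.96, adjusted p = 0.0328 in edgeR). E2f3 lost its call without BM replicate 1, 2 or 3 or splenic replicate 1, 2 or 3 or BM sepsis replicate 1, 2 or 3 (adjusted p between 0.0521 and 0.109 in edgeR). None of 63 histone genes was called by edgeR (12 at an unadjusted p under 0.05, 6 by DESeq2), their median was 1.48, and 25 (39.7%) did not overlap in favor of BM against 1 in favor of spleen. Under each of the 34 other settings the medians of the replication, mitosis, repair and histone lists stayed above that of all genes, by 1.46 to 2.81, 1.83 to 3.27, 0.97 to 2.21 and 1.28 to 2.31 respectively. After sepsis the median differences of the replication and mitosis lists were 1.15 and 1.18, and the summed CPM of both lists still did not overlap between tissues.

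Nuclear genes of the mitochondrial respiratory chain and ATP synthase gave no call, and most of their fold changes were positive. None of the 78 genes was called by edgeR, 20 had an unadjusted p under 0.05, and DESeq2 called none either, while 5 passed with library size alone. A positive fold change was found in 69 of the 78, the median was 0.82, and the BM libraries lay above all splenic libraries for 50 genes (64.1%, against 11.3% of all genes tested) and below them for 1. With library size alone this count was 67 (17.1% of all genes), with median-of-ratios factors 38 (9.12% of all genes) and with segment genes left out of the total 59 (12.1% of all genes). The list summed to 34895 to 45119 CPM in BM and 20136 to 28554 CPM in spleen. Ndufa4, a subunit named as the member with the highest CPM, had 1143, 1486 and 1759 CPM in the BM libraries and 816, 498 and 896 CPM in the splenic libraries (log2 fold change 0.99, adjusted p = 0.429 in edgeR). Messages encoded by the mitochondrial genome are made apart from these nuclear genes. Of 13 genes for these messages 8 were tested, with a median of -0.09, and none was called by edgeR or DESeq2 or had an unadjusted p under 0.05 (0 genes). All 13 genes summed to 22852 to 26394 CPM in BM and 23255 to 29152 CPM in spleen. After sepsis the summed respiratory chain genes overlapped between tissues, at 30477 to 46411 CPM in BM and 15520.0 to 45160.0 CPM in spleen. In the sepsis libraries 6 of the 78 genes did not overlap in favor of BM, a smaller share than the 11% of all genes tested. None did so in favor of spleen.

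Other parts of the mitochondrion and of energy metabolism gave single calls. Mitochondrial ribosomal proteins had a median of 0.59 over 77 genes, with 23 genes (29.9%, against 11.3% of all genes) not overlapping in favor of BM and none in favor of spleen. Mrps25 was called, with 115, 125 and 122 CPM in the BM libraries and 16.8, 10.3 and 32.7 CPM in the splenic libraries (log2 fold change 2.60, adjusted p = 0.0383 in edgeR). Because 69.8% of its exonic length overlaps another gene, its counts are uncertain, and its call was lost without BM replicate 1, 2 or 3 or splenic replicate 1 or 2 or BM sepsis replicate 1 or 3 (adjusted p between 0.0543 and 0.122 in edgeR). Etfb, which passes electrons from fatty acid oxidation to the respiratory chain, was the 1 call among 15 genes of that pathway, with 275, 249 and 224 CPM in the BM libraries and 41.1, 34.7 and 64.0 CPM in the splenic libraries (log2 fold change 2.42, adjusted p = 0.0207 in edgeR), and it lost its call without BM replicate 1, 2 or 3 or splenic replicate 1 or 2 (adjusted p between 0.0647 and 0.0797 in edgeR). The exons of Etfb overlap another gene over 58.2% of their length. Splicing factors gave no call by edgeR (6 at an unadjusted p under 0.05, none by DESeq2), a median of 0.78, 16 of 31 genes (51.6%) not overlapping in favor of BM and 2 in favor of spleen. Srsf7, the splicing factor with the highest CPM, had 896, 1081 and 1142 CPM in the BM libraries and 693, 429.6 and 673 CPM in the splenic libraries (log2 fold change 0.80, adjusted p = 0.555 in edgeR). Medians between 0.25 and 0.88, and no call by edgeR, were found for glycolysis, the TCA cycle, nucleotide synthesis, antioxidant enzymes, the proteasome, tRNA synthetases, ribosome biogenesis, cholesterol synthesis and heat shock proteins, each with 2 to 7 genes at an unadjusted p under 0.05. DESeq2 called 1 proteasome gene and 2 genes of cholesterol synthesis higher in BM and none in the other 7 lists. For the cytoplasmic ribosomal proteins the direction depended on the scaling, with a median of 0.21 over 81 genes with TMM, -0.04 with RLE factors and 0.72 with library size alone.

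**Figure D2:**
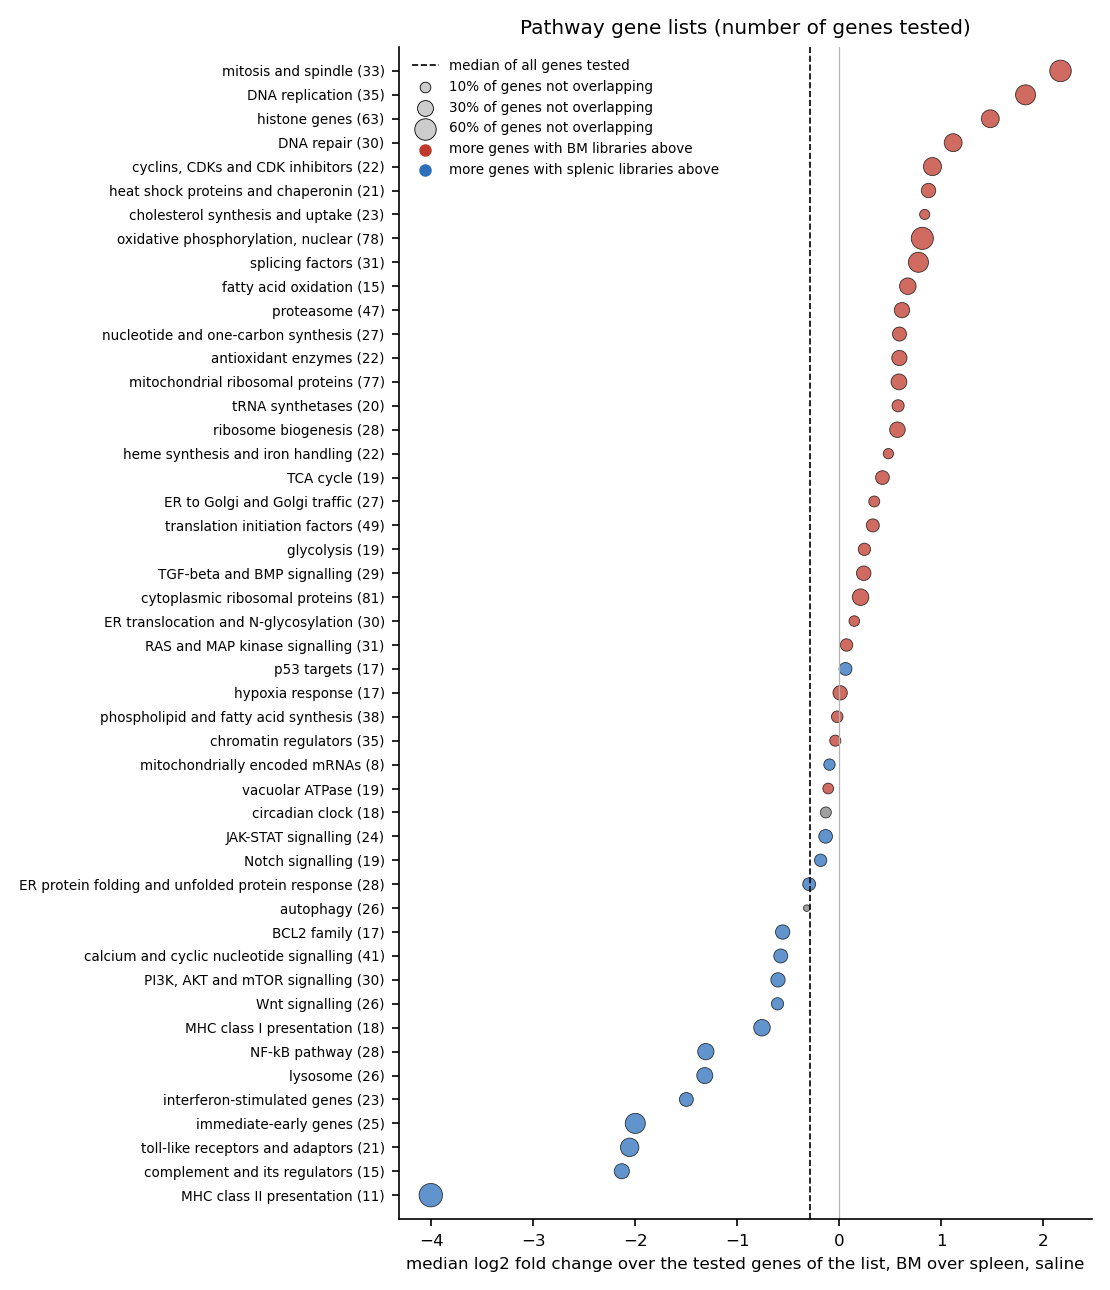
Median log2 fold change (BM over spleen, saline) of 48 hand-written pathway lists, with the number of tested genes in parentheses and a dashed line at the median of all tested genes (-0.28). Dot size gives the larger of the 2 shares of genes whose libraries did not overlap, and color which tissue was higher for more of them (gray where equal), from mitosis (2.17) at the top to MHC class II (-4.00) at the bottom.

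The lists of Rab GTPases, solute carriers and SNAREs gave few calls, all higher in BM, and medians close to that of all genes. Rab38 and Rab27b are small GTPases of lysosome-related organelles, and Slc35d3 is a membrane protein that platelet dense granules require. Rab38 had 66.3, 115 and 159 CPM in the BM libraries and 0.541, 8.42 and 0.429 CPM in the splenic libraries (log2 fold change 5.16, adjusted p = 0.0163 in edgeR) and lost its call without BM replicate 3 (adjusted p = 0.0647 in edgeR). Rab27b had 441, 360.2 and 439 CPM in the BM libraries and 3.65, 70.6 and 3.54 CPM in the splenic libraries (log2 fold change 3.99, adjusted p = 0.0438 in edgeR), with 1 splenic library far above the other two, and it was not called with RLE factors, by DESeq2 or limma-voom, in the saline libraries alone or without BM replicate 1, 2 or 3 or splenic replicate 1 or 3 or BM sepsis replicate 2 or splenic sepsis replicate 2 (adjusted p between 0.0508 and 0.111 in edgeR). Slc35d3 had 253, 84.7 and 243 CPM in the BM libraries and 1.35, 9.24 and 14.9 CPM in the splenic libraries (log2 fold change 4.50, adjusted p = 0.00754 in edgeR). Vamp5, a SNARE protein, had 462, 551 and 577 CPM in the BM libraries and 76.0, 17.9 and 74.6 CPM in the splenic libraries (log2 fold change 3.24, adjusted p = 0.0344 in edgeR), and its call was lost without BM replicate 1, 2 or 3 or splenic replicate 1, 2 or 3 (adjusted p between 0.0535 and 0.096 in edgeR). These were the calls among 54 Rab GTPases (2), 318 solute carriers (2, the other being Slc14a1) and 54 SNARE genes (1), against 0.523% of all genes, and their medians of -0.05, -0.25 and -0.07 were close to that of all genes. Limma-voom called neither Rab38 (adjusted p = 0.0615) nor Slc35d3 (adjusted p = 0.119). Itgb3 (CD61) was the 1 call among 27 integrins, with 314, 305 and 233 CPM in the BM libraries and 11.9, 17.9 and 55.7 CPM in the splenic libraries (log2 fold change 3.32, adjusted p = 0.0496 in edgeR). It was not called by DESeq2 or limma-voom or with RLE factors, nor without BM replicate 1, 2 or 3 or splenic replicate 1 or 2 or BM sepsis replicate 1 or 2 (adjusted p between 0.0533 and 0.16 in edgeR).

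Stem and progenitor genes had calls in both directions and a positive median. Of 15 tested, Muc13, Mycn and Angpt1 were called higher in BM and Ly6a higher in spleen, against 0.523% and 0.725% of all genes. The median was 1.95, and 12 fold changes were positive. In favor of BM 9 genes (60%, against 11.3% of all genes) did not overlap, and in favor of spleen 2 (13.3%, against 7.0%). Mycn, a transcription factor of the MYC family, had 42.0, 50.8 and 108 CPM in the BM libraries and 0.405, 0.495 and 2.04 CPM in the splenic libraries (log2 fold change 6.08, adjusted p = 0.012 in edgeR), and it lost its call without BM replicate 3 (adjusted p = 0.061 in edgeR). Angpt1, a ligand of the receptor TIE2 that MKs and stem cells make, had 199, 202 and 367 CPM in the BM libraries and 0.946, 0.743 and 27.9 CPM in the splenic libraries (log2 fold change 4.70, adjusted p = 0.0392 in edgeR), and splenic replicate 3 held nearly all of its splenic RNA. Its call was lost without BM replicate 1, 2 or 3 or splenic replicate 1 or 2 (adjusted p between 0.0683 and 0.111 in edgeR).

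The lysosome list gave calls higher in spleen. Of 26 lysosomal genes tested, 4 were called higher in spleen, against 0.725% of all genes, and none in BM. All 4 encode proteases of endosomes and lysosomes, among them enzymes that cut the invariant chain in antigen-presenting cells. Ctss (cathepsin S) had 38.7, 93.6 and 21.8 CPM in the BM libraries and 827, 628 and 1016 CPM in the splenic libraries (edgeR, log2 fold change -4.00 with SE 0.71, adjusted p = 0.00667), and it lost its call without BM replicate 1 or 3 (adjusted p between 0.0545 and 0.0575 in edgeR). Ctsh (cathepsin H) had 3.09, 10.7 and 3.12 CPM in the BM libraries and 148, 88.6 and 259 CPM in the splenic libraries (log2 fold change -4.87, adjusted p = 0.00978 in edgeR), it was not called by limma-voom (adjusted p = 0.0521), and it lost its call without BM replicate 1 or 3 (adjusted p between 0.0725 and 0.0824 in edgeR). Lgmn (legumain) had 2.15, 1.89 and 0.861 CPM in the BM libraries and 43.7, 74.0 and 24.0 CPM in the splenic libraries (log2 fold change -4.84, adjusted p = 0.008 in edgeR), and it lost its call without BM replicate 1, 2 or 3 (adjusted p between 0.0524 and 0.0873 in edgeR). Ctsz (cathepsin Z) had 58.2, 56.6 and 13.2 CPM in the BM libraries and 241, 256 and 303 CPM in the splenic libraries (log2 fold change -2.64, adjusted p = 0.0366 in edgeR), and it lost its call without BM replicate 1, 2 or 3 or splenic replicate 1, 2 or 3 (adjusted p between 0.0521 and 0.214 in edgeR). The median of the list was -1.32, 8 genes (30.8%, against 7.0% of all genes) did not overlap in favor of spleen and none in favor of BM, while the summed CPM of the tissues overlapped. The 19 tested subunits of the proton pump that acidifies lysosomes had a median of -0.11 and no call by edgeR or DESeq2 (2 at an unadjusted p under 0.05). The lists were not tested against each other. The B cell sum was likewise higher in every splenic library than in any BM library. Within spleen Ctss, Ctsh and Ctsz had their highest value in replicate 3, where the B cell sum was highest, and Lgmn had its lowest value there. The part of B cells was not tested.

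Sensors of nucleic acids and bacterial products and interferon-stimulated genes gave 2 calls each, all higher in spleen, against 0.725% of all genes. Among 21 genes of Toll-like receptors and their adaptors, the calls were Ly86 (MD-1, which binds the receptor RP105) and Unc93b1 (which carries nucleic acid-sensing receptors to endosomes), and the median was -2.05. Ly86 had 21.5, 23.3 and 20.7 CPM in the BM libraries and 414, 358 and 786 CPM in the splenic libraries (edgeR, log2 fold change -4.57 with SE 0.75, adjusted p = 0.00323). Unc93b1 had 13.6, 2.98 and 3.66 CPM in the BM libraries and 63.8, 62.3 and 148 CPM in the splenic libraries (log2 fold change -3.76, adjusted p = 0.0348 in edgeR), and it lost its call without BM replicate 2 or 3 or splenic replicate 3 (adjusted p between 0.0736 and 0.209 in edgeR). Summed over the list, CPM were 209 to 239 in BM and 717 to 1556 in spleen. Among 23 interferon-stimulated genes, Zbp1, a sensor of Z-form nucleic acids, had 0.344, 0.596 and 5.06 CPM in the BM libraries and 83.1, 88.0 and 68.8 CPM in the splenic libraries (log2 fold change -5.32, adjusted p = 0.0182 in edgeR). Ifi27l2a had 46.9, 93.5 and 193 CPM in the BM libraries and 881, 557 and 2274 CPM in the splenic libraries (log2 fold change -3.48, adjusted p = 0.0353 in edgeR). Both calls depended on single libraries, that of Zbp1 being lost without BM replicate 1 or 2 (adjusted p between 0.0981 and 0.105 in edgeR) and that of Ifi27l2a without BM replicate 1, 2 or 3 or splenic replicate 3 (adjusted p between 0.0688 and 0.178 in edgeR). The list had a median of -1.5 with 5 genes not overlapping in favor of spleen, which is 21.7% against 7.0% of all genes.

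Presentation of antigen through MHC class I, which nearly all nucleated cells and platelets use, gave no call. None of 18 class I genes passed edgeR's test (4 at an unadjusted p under 0.05, 2 by DESeq2), the median was -0.76, and 6 genes (33.3%, against 7.0% of all genes) did not overlap in favor of spleen. B2m, the invariant chain of class I, had 2689, 4163 and 4649 CPM in the BM libraries and 8748, 6216 and 8444 CPM in the splenic libraries (log2 fold change -1.03, adjusted p = 0.434 in edgeR), and the class I list summed to 4955 to 7206 CPM in BM and 9905 to 13954 CPM in spleen.

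Immediate-early genes, which cells switch on within minutes of a stimulus or of tissue dissociation, had a negative median, with calls higher in spleen. Of 25 tested, Klf2 and Ier5 were called, against 0.725% of all genes called higher in spleen, and the median was -2.0. In favor of spleen 13 genes (52.0%, against 7.0% of all genes) did not overlap, against 1 in favor of BM. Ier5 had 26.7, 40 and 27.5 CPM in the BM libraries and 309, 293 and 259 CPM in the splenic libraries (log2 fold change -3.19, adjusted p = 0.00929 in edgeR), and it lost its call without BM replicate 1, 2 or 3 (adjusted p between 0.0517 and 0.0892 in edgeR). The list summed to 396 to 815 CPM in BM and 2017 to 3425 CPM in spleen. In the NF-kB pathway 2 of 28 genes were called higher in spleen, against 0.725% of all genes, with a median of -1.31. Its libraries did not overlap for 9 genes in favor of spleen (32.1%, against 7.0% of all genes) and for 1 in favor of BM. Birc3, an inhibitor of apoptosis that NF-kB induces, had 7.82, 10.2 and 22.4 CPM in the BM libraries and 57.7, 234 and 127 CPM in the splenic libraries (log2 fold change -3.37, adjusted p = 0.0382 in edgeR). Nfkbia, the inhibitor IkB alpha, had 82.6, 64.1 and 82.8 CPM in the BM libraries and 556, 239.8 and 304 CPM in the splenic libraries (log2 fold change -2.26, adjusted p = 0.0427 in edgeR). Neither was called with library size alone or without a filter, and limma-voom did not call Birc3. Birc3 lost its call without BM replicate 1, 2 or 3 or splenic replicate 2 or BM sepsis replicate 2 or 3 (adjusted p between 0.052 and 0.209 in edgeR), and Nfkbia lost it without BM replicate 1, 2 or 3 or splenic replicate 1 or BM sepsis replicate 1, 2 or 3 (adjusted p between 0.0658 and 0.246 in edgeR). The time between removal of each organ and lysis is not given, and its part in these values was not tested.

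**Figure D3:**
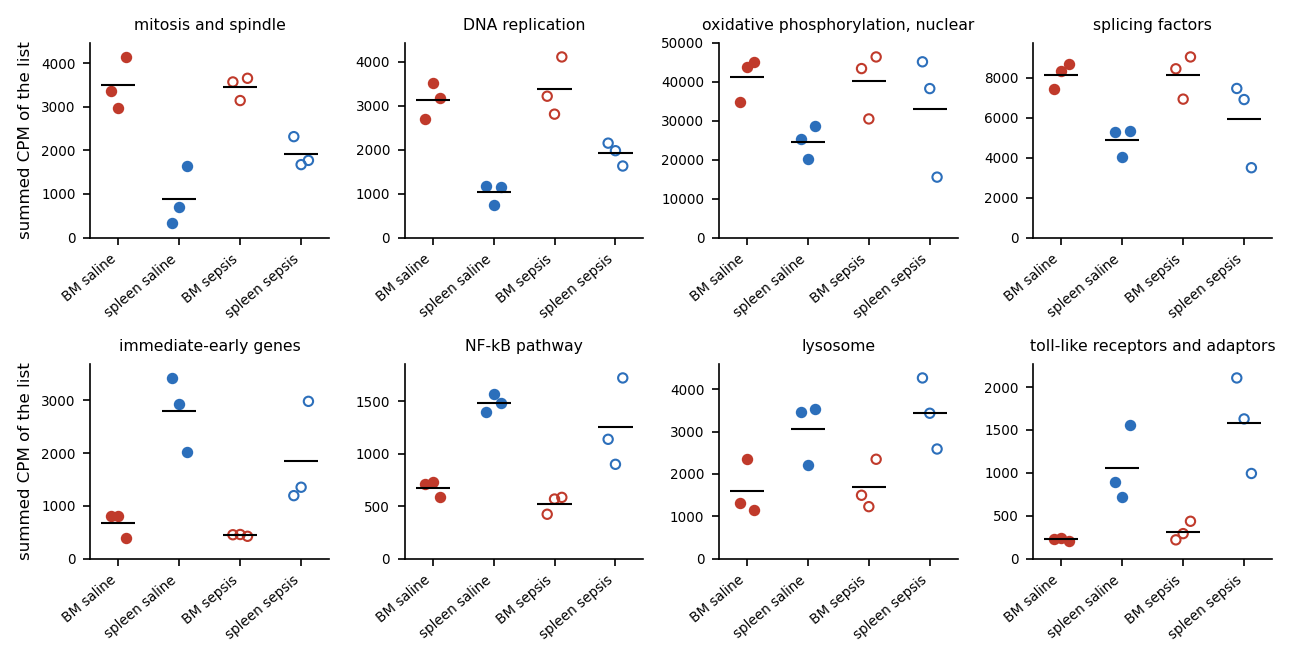
Summed CPM of 8 gene lists in each library, with saline libraries filled, sepsis libraries open and a line at the mean of 3 libraries. After saline the libraries of the tissues did not overlap in any panel except that of the lysosome list, where BM replicate 2 (2340.1 CPM) lay above splenic replicate 2 (2205 CPM).

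Transcription factors and developmental signaling gave calls in both directions. Irf4 and Irf8, which direct B cell, plasma cell and dendritic cell programs, were the calls among 9 IRF genes, against 0.725% of all genes called higher in spleen. Irf4 had 0.258, 0.596 and 1.29 CPM in the BM libraries and 51.5, 116 and 30.7 CPM in the splenic libraries (log2 fold change -6.52, adjusted p = 0.00675 in edgeR), and it lost its call without BM replicate 1 (adjusted p = 0.0552 in edgeR). Irf8 had 2.23, 4.47 and 5.17 CPM in the BM libraries and 62.6, 37.3 and 81.3 CPM in the splenic libraries (log2 fold change -3.93, adjusted p = 0.0294 in edgeR), and it lost its call without BM replicate 1, 2 or 3 (adjusted p between 0.122 and 0.171 in edgeR). Spib, an ETS factor of B cells and plasmacytoid dendritic cells, had 1.72, 2.09 and 0.431 CPM in the BM libraries and 46.9, 62.2 and 83.7 CPM in the splenic libraries (log2 fold change -5.49, adjusted p = 0.0163 in edgeR) and was the 1 call among 17 ETS genes. Its call was lost without BM replicate 1, 2 or 3 (adjusted p between 0.0673 and 0.113 in edgeR). Among 29 tested genes of TGF-beta and BMP signaling, 2 were called higher in spleen and 1 in BM, against 0.725% and 0.523% of all genes. The BMP and TGF-beta targets Id3 and Id2, which block basic helix-loop-helix factors, were higher in spleen. Id3 had 0.430, 1.19 and 0.431 CPM in the BM libraries and 196, 16.3 and 186 CPM in the splenic libraries (edgeR, log2 fold change -7.58 with SE 1.41, adjusted p = 0.00841), and it lost its call without BM replicate 1 or 3 (adjusted p between 0.0603 and 0.0678 in edgeR). Id2 had 91.3, 49.5 and 41.7 CPM in the BM libraries and 753, 260.5 and 309.7 CPM in the splenic libraries (log2 fold change -2.86, adjusted p = 0.0405 in edgeR), and it lost its call without BM replicate 1, 2 or 3 or splenic replicate 1 or BM sepsis replicate 1 or splenic sepsis replicate 2 (adjusted p between 0.0504 and 0.261 in edgeR). Bmp2k, a kinase of clathrin-coated pits named for its induction by BMP2, was higher in BM, with 140.3, 124 and 149 CPM in the BM libraries and 4.46, 5.45 and 31.3 CPM in the splenic libraries (log2 fold change 3.32, adjusted p = 0.0303 in edgeR), and it lost its call without BM replicate 1, 2 or 3 or splenic replicate 1 or 2 (adjusted p between 0.0711 and 0.0964 in edgeR). Hes1, the main target of Notch receptors, was the 1 call among 19 Notch signaling genes tested. It had 0.344, 1.29 and 4.20 CPM in the BM libraries and 59.1, 57.8 and 66.9 CPM in the splenic libraries (log2 fold change -4.98, adjusted p = 0.0126 in edgeR), and it lost its call without BM replicate 1 or 2 (adjusted p between 0.0768 and 0.0856 in edgeR). Zfp820 was the 1 call among 318 zinc finger genes of the Zfp series, with 657 counts in BM and 4 in spleen, and it was not called with RLE factors, after thinning or without BM replicate 1 or 3 or splenic replicate 1, 2 or 3 or BM sepsis replicate 1 or 3 (adjusted p between 0.0674 and 0.16 in edgeR). Limma-voom and the saline libraries alone did not call Zfp820 either.

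Kinases, phosphatases and survival genes gave few calls in any list. Prkcb, the protein kinase C of the B cell receptor pathway, had 32.6, 16.5 and 18.4 CPM in the BM libraries and 174, 92.8 and 109 CPM in the splenic libraries (log2 fold change -2.48, adjusted p = 0.0383 in edgeR) and lost its call without BM replicate 1, 2 or 3 or splenic replicate 1 or BM sepsis replicate 1, 2 or 3 or splenic sepsis replicate 2 (adjusted p between 0.051 and 0.251 in edgeR). The phosphatase SHP-2 (Ptpn11), which relays signals of the thrombopoietin receptor and of other cytokine receptors, was higher in BM, with 118, 130.2 and 62.1 CPM in the BM libraries and 6.62, 1.16 and 10.1 CPM in the splenic libraries (log2 fold change 4.12, adjusted p = 0.0214 in edgeR), and it lost its call without BM replicate 1 or 2 or splenic replicate 1 (adjusted p between 0.0556 and 0.0755 in edgeR). Ptprs, a receptor phosphatase, had 55.4, 94.6 and 29.9 CPM in the BM libraries and 7.70, 4.29 and 3.65 CPM in the splenic libraries (log2 fold change 3.52, adjusted p = 0.0401 in edgeR) and lost its call without BM replicate 1, 2 or 3 or splenic replicate 1, 2 or 3 or BM sepsis replicate 1, 2 or 3 (adjusted p between 0.0561 and 0.212 in edgeR). The third call among 38 Ptp genes was Ptprc (CD45), higher in spleen at a log2 fold change of -2.38, and this call was lost without BM replicate 1, 2 or 3 or splenic replicate 1 (adjusted p between 0.053 and 0.142 in edgeR). Trp53inp1, a p53 target of stress responses and autophagy, had 8.59, 18.7 and 23.4 CPM in the BM libraries and 163, 168 and 335 CPM in the splenic libraries (log2 fold change -3.72, adjusted p = 0.00831 in edgeR), and it lost its call without BM replicate 1 or 2 (adjusted p between 0.0539 and 0.0737 in edgeR). Bcl2a1b, a BCL2 relative that protects leukocytes, had 0.0859, 0.497 and 0.215 CPM in the BM libraries and 41.0, 37.5 and 38.9 CPM in the splenic libraries (log2 fold change -7.16, adjusted p = 0.0238 in edgeR). It shares reads with near-identical copies and 49.1% of its exonic length overlaps another gene, so its counts are uncertain, and its call was lost without BM replicate 1, 2 or 3 (adjusted p between 0.0755 and 0.139 in edgeR). Ero1lb, an oxidase that forms disulfide bonds in secretory cells, had 2.32, 6.66 and 16.5 CPM in the BM libraries and 60.3, 108 and 120.2 CPM in the splenic libraries (log2 fold change -3.51, adjusted p = 0.0261 in edgeR), and it lost its call without BM replicate 1 or 2 (adjusted p between 0.142 and 0.149 in edgeR). Of 18 clock genes, Per3 was called higher in BM with 729 counts in BM and 2 in spleen (ratio 339, 95% counting interval 93.6 to 2807, adjusted p = 0.00796 in edgeR). The chemokine receptor Cxcr5, which guides B cells and helper T cells into follicles, had 0.773, 0.497 and 0.215 CPM in the BM libraries and 25.5, 34.5 and 138 CPM in the splenic libraries (log2 fold change -7.02, adjusted p = 0.0105 in edgeR), and Cr2, the complement receptor of B cells and follicular dendritic cells, had 16.8, 5.67 and 10.9 CPM in the BM libraries and 163, 179 and 471 CPM in the splenic libraries (log2 fold change -4.60, adjusted p = 0.0052 in edgeR). Cxcr5 lost its call without BM replicate 1, 2 or 3 (adjusted p between 0.0574 and 0.0921 in edgeR) and Cr2 lost it without BM replicate 3 (adjusted p = 0.0519 in edgeR).

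Lists of other cell types that the libraries could hold gave few calls. T cell genes had a median of -3.90 and 7 of 18 (38.9%, against 7.0% of all genes) did not overlap in favor of spleen, but splenic replicate 3 had 295 CPM in sum against 3300.4 and 1425 CPM in the other two. Cd3d had 33.5, 24.4 and 3.34 CPM in the BM libraries and 833, 375 and 15 CPM in the splenic libraries (adjusted p = 0.228 in edgeR). Among basophil and mast cell genes, Mcpt8, a protease of basophil granules, had 4985, 13208 and 2155 CPM in the BM libraries and 1457, 858 and 1527 CPM in the splenic libraries (adjusted p = 0.228 in edgeR), and S100a8, a neutrophil alarmin, had 22.3, 57.9 and 20.5 CPM in the BM libraries and 9679, 162 and 142 CPM in the splenic libraries (adjusted p = 0.114 in edgeR). Of the 14 monocyte and macrophage genes tested, Ly6c2 was called higher in spleen, with 42.4, 118 and 154 CPM in the BM libraries and 1046, 283 and 780.1 CPM in the splenic libraries (log2 fold change -2.75, adjusted p = 0.0406 in edgeR), and it lost its call without BM replicate 1, 2 or 3 or splenic replicate 1 or 3 or splenic sepsis replicate 2 (adjusted p between 0.0502 and 0.217 in edgeR). By edgeR no gene was called in the T cell, neutrophil, basophil and mast cell, NK cell, erythroid, endothelial, stromal and red pulp macrophage lists. Each held 2 to 9 genes at an unadjusted p under 0.05, and DESeq2 called 3 T cell, 3 neutrophil, 1 red pulp macrophage and 1 stromal gene higher in spleen and 2 erythroid genes higher in BM. Of all 65 pathway and family lists, 35 had no called gene, 11 had calls in BM only, 15 in spleen only and 4 in both directions.

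The sepsis libraries give the tissue difference of the same genes in other samples. They also entered the filter, the scaling and the estimate of the spread behind the saline calls. The counts below are therefore not independent of those calls. Of the 106 genes higher in BM after saline, 95 had a positive log2 fold change after sepsis, against 45.1% of all genes tested, and 35 were called in the same direction, against 0.597% of all genes tested. Of the 147 higher in spleen, 144 had a negative value after sepsis and 115 were called, against 1.18% of all genes. BM libraries lay above all splenic libraries after sepsis for 74 of the first set, and splenic libraries above all BM libraries for 131 of the second, against 11% and 7.02% of all genes tested. The tissue difference of Tceal8 after sepsis was 6.48 (adjusted p = 0.000108 in edgeR), and that of Slc14a1 and Muc13 was 6.25 and 7.35. Smaller values or values of the other sign were found after sepsis for Rfc5 (-0.17), Pecr (-0.80) and Per3 (0.53), which had few counts in splenic libraries after saline. On the splenic side the differences after sepsis were -7.58 for Ly6a, -6.43 for Scd1, -6.06 for Gimap3 and -3.72 for Map3k8. No gene passed the test of the difference between the saline and sepsis contrasts in edgeR (smallest adjusted p = 0.0764, 1556 genes at an unadjusted p under 0.05), so none of these pairs of values was shown to differ.

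**Figure D4:**
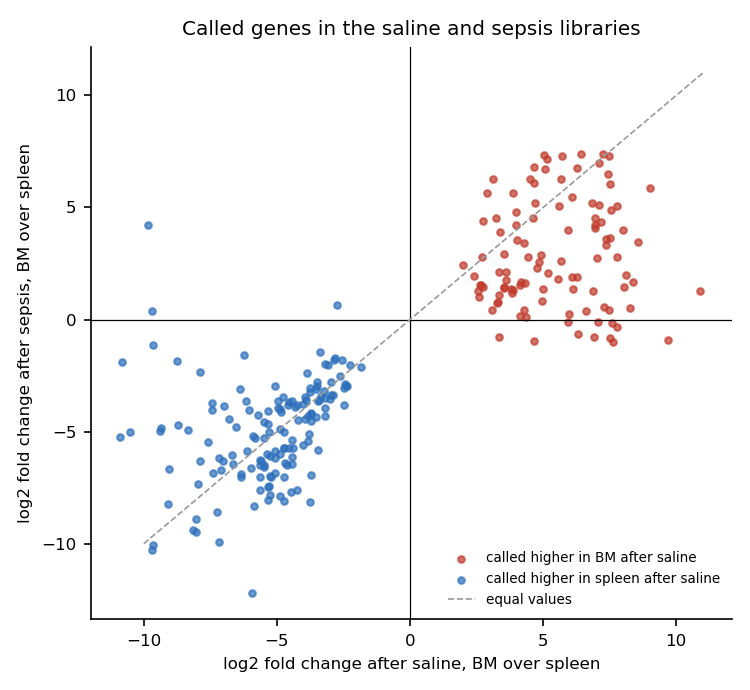
Log2 fold change (BM over spleen) of the 253 called genes after saline on the x axis and after sepsis on the y axis, with a dashed line at equal values. The sepsis libraries are other samples but shared the fit that gave the saline calls. Of the genes higher in BM 95 of 106 lie above 0 on the y axis, and of the genes higher in spleen 144 of 147 lie below it.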

How the data were processed

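Count tables were deposited by the authors as raw gene counts per library, made by aligning reads to GRCm38 with STAR 2.7.2b according to the submitters' processing notes, which also name R 3.6.1 and DESeq2 1.26. The libraries were made from 300 sorted cells each with SMART-Seq HT and Nextera XT. Molecular identifiers are not mentioned, so counts are reads and not molecules, and the counting intervals cover counting error only. The annotation release, counting options and read filters were not given in the sources used here. All 55536 gene IDs matched GENCODE M21, which supplied symbols, coordinates and overlaps between genes.

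Genes were tested with edgeR 4.0.16 in R 4.3.3 by the quasi-likelihood test with TMM scaling over all 12 libraries, with 1 mean per tissue and treatment, and the contrast of BM saline minus splenic saline. The filter of edgeR with a minimum count of 10 left 20263 genes, over all of which p values were adjusted by Benjamini and Hochberg. Called genes have an adjusted p under 0.05. Libraries overlap for a gene unless all 3 CPM of a tissue exceed all 3 of the other. In each direction, the text names the 15 protein-coding genes of smallest p outside the MK, B cell, plasma cell and MHC class II lists and the segment genes, of which 1 higher in BM is not reported here. It also names up to 4 called members of a list, or the member with the highest CPM in some lists without a call, and genes marked as chosen after their values were seen. Members and lists were chosen with earlier results of these data known. Lists are described by counts and medians without a test of the list. The alternatives were RLE factors, library size alone, no filter, a stricter filter, DESeq2 1.42.0, limma 3.58.1 (voom with quality weights), the 6 saline libraries alone, a replicate block, removal of segment genes, a fold threshold, each library left out in turn and, chosen after seeing the data, thinning to 7756762 counts per library and leaving out each library with the 20263 genes kept. The scripts were tested on data simulated from the means and spread that edgeR had fitted, so the outcome cannot rank the tools. There DESeq2 made many more false calls than edgeR, and limma-voom also made more. In these data edgeR missed most of the smaller changes and few of the larger. Promoter bases came from RefSeq on GRCm38.p6.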

Additional observations from a re-analysis of the deposited data

How the results depend on the processing

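The spread between libraries of 300 cells was wide (a common dispersion of 2.05, which is a biological coefficient of variation of 143%), so moderate differences were often not detectable at this number of libraries. No called gene was called in the opposite direction under any setting. Against 106 genes higher in BM and 147 higher in spleen, library size alone gave 262 and 114, no filter 230 and 299, DESeq2 415 and 631, limma-voom 44 and 141, the 6 saline libraries alone 64 and 115, and RLE factors 79 and 182. The cause of these shifts was not tested, although library size alone moved the median of all genes by 0.49. Of the main calls, limma-voom kept 30 and 85, and the saline libraries alone kept 46 and 94. Leaving out a library and filtering again raised the genes tested to between 23354 and 26112, so the 20263 genes were also kept. Leaving out one library gave 79 to 244 genes higher in BM and 116 to 232 in spleen with the filter applied again, and 34 to 207 and 48 to 194 with the genes kept. With the genes kept, leaving out BM saline replicate 1, 2 or 3 gave 44, 51 and 34 higher in BM and 51, 59 and 48 in spleen, splenic saline replicate 3 gave 207 in BM, BM sepsis replicate 1 gave 70 and splenic sepsis replicate 3 gave 185. With the filter applied again, the BM counts were 244 without splenic saline replicate 3 and 202, 195 and 235 without splenic sepsis replicate 1, 2 or 3, and the splenic counts were 229, 229 and 228 without BM sepsis replicate 1, 2 or 3 and 232 without splenic sepsis replicate 3. With the genes kept, 30 of 85 named called genes kept their call in all 12 fits, and 55 lost it without at least 1 BM saline replicate. Same-numbered libraries did not deviate together (correlations of -0.0566 to 0.0447 over 18 pairs). With a spread this wide, these correlations cannot tell whether same-numbered libraries came from the same mouse. A replicate block gave 130 and 158 genes. Over 3288 alternative values of 94 named genes, 2792 kept their side of the threshold, 461 lost the call, 35 gained one and 0 changed sign. Limma-voom lost 34 of these calls and the 6 saline libraries alone lost 29, Mcm6 and Angpt1 among the latter. Of genes higher in BM, limma-voom losses not stated elsewhere were Mycn, E2f3, Rad51ap1, Mrps25, Mybl2, Bmp2k, Ptpn11, Ptprs and Tuba4a. Of genes higher in spleen they were Ly6c2, Irf8, Ifi27l2a, Prkcb and Id3.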

Other observations

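Some gene families were chosen after their values were seen, because several of their members stood among the called genes, and their counts are a description. Kinetochore and spindle-assembly genes (Cenp, Spc, Haus and relatives), which attach chromosomes to microtubules, had 6 called members of 36 tested, all higher in BM, with 20 not overlapping between tissues in favor of BM, none in favor of spleen and a median log2 fold change of 1.57. Of all genes tested, 0.523% were called higher in BM and 11.3% did not overlap in favor of BM. The called members were Oip5, Haus7, Cenpw, Cenph, Cenpk and Spc25. Oip5, which helps to load the centromeric histone, had 22.3, 39.0 and 88.4 CPM in the BM libraries and 0.135, 0.495 and 0.215 CPM in the splenic libraries (log2 fold change 7.38, adjusted p = 0.00418 in edgeR). Cenpw had 415, 340.5 and 408 CPM in the BM libraries and 51.2, 31.8 and 98.4 CPM in the splenic libraries (log2 fold change 2.68, adjusted p = 0.0174 in edgeR), and it lost its call without BM replicate 1, 2 or 3 or splenic replicate 1 or 2 (adjusted p between 0.0524 and 0.0663 in edgeR). Splenic values of Oip5 were near the limit of detection and those of Cenpw were not. Limma-voom did not call Oip5, Haus7, Cenph, Cenpk or Spc25. With the same genes tested, Oip5 kept its call without any of the 12 libraries, Haus7 lost it without BM replicate 3 (adjusted p = 0.0965 in edgeR), Cenph without BM replicate 1, 2 or 3 or splenic replicate 1 or 2 or BM sepsis replicate 1 (adjusted p between 0.0541 and 0.116 in edgeR), Cenpk without BM replicate 2 or 3 or splenic replicate 2 or 3 (adjusted p between 0.0519 and 0.121 in edgeR) and Spc25 without BM replicate 1, 2 or 3 or splenic replicate 1 or 2 or splenic sepsis replicate 2 (adjusted p between 0.0504 and 0.125 in edgeR).

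The GIMAP family of small GTPases, which lymphocytes use for survival, had 3 called members of 8 tested, all higher in spleen, with 7 not overlapping in favor of spleen, none in favor of BM and a median log2 fold change of -2.41. Of all genes tested, 0.725% were called higher in spleen and 7.0% did not overlap in favor of spleen. Next to Gimap3, Gimap6 had 33.9, 30.4 and 8.18 CPM in the BM libraries and 213, 211 and 254 CPM in the splenic libraries (log2 fold change -3.22, adjusted p = 0.0187 in edgeR), and it lost its call without BM replicate 1, 2 or 3 (adjusted p between 0.0621 and 0.121 in edgeR). Gimap4 had 24.1, 24.3 and 4.95 CPM in the BM libraries and 333, 129 and 232 CPM in the splenic libraries (log2 fold change -3.70, adjusted p = 0.029 in edgeR), and it lost its call without BM replicate 1, 2 or 3 or splenic replicate 1 (adjusted p between 0.0665 and 0.164 in edgeR). The Ifi200 family of DNA-binding interferon-inducible proteins had 1 called member of 12 tested and 7 not overlapping in favor of spleen, with a median of -2.90. The shares over all genes are again 0.725% and 7.0%. Of 15 tubulin genes tested, Tuba8 and Tuba4a were called higher in BM, against 0.523% of all genes, with a median of 0.75 over the family. Tuba4a had 353, 340.2 and 124 CPM in the BM libraries and 22, 10.7 and 47.4 CPM in the splenic libraries (log2 fold change 3.35, adjusted p = 0.0364 in edgeR), and it lost its call without BM replicate 1 or 2 or splenic replicate 1 or 2 (adjusted p between 0.0989 and 0.117 in edgeR). Another gene overlaps 37.3% of its exonic length. The B cell and plasma cell sums were likewise higher in spleen, and the part of such cells in the GIMAP and Ifi200 values was not tested.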
